A study of Mus musculus with 2 samples.

Results

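Natural killer (NK) cells were described in single-cell RNA sequencing of mouse kidney cortex, with 1 PT I-PpoI library and 1 wild-type library. A barcode was kept if it held 1000 or more UMIs (unique molecular identifiers, each counting 1 captured RNA molecule), 200 or more genes and up to 50% UMIs of mitochondrial genes. A kept barcode was chosen by its own UMI counts: it was called an NK cell if 2 or more of the 5 genes Ncr1, Klrb1c, Klre1, Eomes and Gzma had a UMI, and if it had no UMI of Cd3d, Cd3e, Cd3g, Cd79a or C1qa, which mark T cells, B cells and macrophages. This gave 55 of 15488 kept barcodes, 10 of 5076 in PT I-PpoI against 45 of 10412 in wild type.

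PT I-PpoI mice express I-PpoI, an endonuclease that cuts DNA at a long recognition site, in epithelial cells of the proximal tubule, per the series title, so NK cells are not the cells in which the enzyme is meant to act. Both libraries are labelled as kidney cortex of mice aged 16 weeks, digested with collagenase and protease and run on 10x 3' chemistry. The labels used here give neither the promoter that drives I-PpoI, nor the sex, nor how many mice went into a library. With 1 library per group no difference between PT I-PpoI and wild type could be tested against replicate error, and every interval below covers counting error only.

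NK cells are lymphocytes without rearranged antigen receptors. They weigh signals from activating receptors such as NKG2D and NKp46, which act through adaptor proteins with or next to tyrosine activation motifs, against inhibitory receptors for MHC class I molecules, and kill a target by releasing perforin and granzymes. In kidney and other organs, circulating NK cells are found beside resident group 1 innate lymphoid cells, which share many receptors with them and carry residency genes such as Cxcr6 and Itga1.

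The 5 genes of the rule chose the cells, so their levels are given as description. Ncr1, which encodes the receptor NKp46, was read in 8 of 10 PT I-PpoI cells and in 40 of 45 wild-type cells, with 36 and 111 UMIs in all. Klrb1c, the gene of NK1.1, was read in 7 and 31 cells, and Klre1, a lectin-like receptor, in 10 and 37 cells. Eomes, a T-box transcription factor of the NK lineage, was read in 6 of 10 and 7 of 45 cells, and Gzma, the gene of granzyme A, in 8 of 10 and 26 of 45. Of the PT I-PpoI cells, 1 had exactly 2 of these genes, 1 had 3, 6 had 4 and 2 had all 5. In wild type 13 cells had 2, 17 had 3, 11 had 4 and 4 had all 5. PT I-PpoI cells were also the deeper ones, at a median of 3753 UMIs against 2362 in wild type.

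Near the edge of the rule, the PT I-PpoI cell with exactly 2 rule genes had UMIs of Klrk1, Klrd1, Fcer1g and Nkg7 and none of Tyrobp. Of the 13 wild-type cells with 2, 12 had Klrk1 UMIs, 12 had Tyrobp UMIs and 11 had Nkg7 UMIs. Barcodes just outside, with 1 rule gene and no excluded gene, numbered 27 in PT I-PpoI, against 40 in wild type. They were deeper, at medians of 17744 and 6592.5 UMIs, and only 10 of 27 and 11 of 40 had a UMI of Ptprc, the gene of the leukocyte antigen CD45. A further 11 and 51 barcodes had 2 or more rule genes together with a Cd3 gene. Trac, the T-cell receptor alpha constant region, was read in 10 of the 11 and 39 of the 51, and Ncr1 in 1 of each, so that most of the barcodes removed by the Cd3 genes carried T-cell receptor transcripts.

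Upstream sequences are shown for Ncr1, the rule gene read in most wild-type cells, and for genes at either end of a division found among them, in which Gzma and Prf1 were high in some cells and Xcl1 in others. Each is the 250 bases before the transcription start in RefSeq on GRCm38.p6, with 2 motifs in capitals: TGTGGT, the core bound by RUNX factors, and TCACACC, a site bound by T-box factors such as Eomes and Tbx21, each searched on both strands. The Ncr1 sequence lies at chr7:4337474-4337723 (+ strand), that of Gzma at chr13:113100982-113101231 (- strand), that of Prf1 at chr10:61297586-61297835 (+ strand) and that of Xcl1 at chr1:164935523-164935772 (- strand).
Ncr1: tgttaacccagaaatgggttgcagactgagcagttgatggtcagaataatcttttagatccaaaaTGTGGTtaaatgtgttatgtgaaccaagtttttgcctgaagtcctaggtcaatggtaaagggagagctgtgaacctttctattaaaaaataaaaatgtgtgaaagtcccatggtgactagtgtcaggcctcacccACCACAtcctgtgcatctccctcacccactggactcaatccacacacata
Gzma: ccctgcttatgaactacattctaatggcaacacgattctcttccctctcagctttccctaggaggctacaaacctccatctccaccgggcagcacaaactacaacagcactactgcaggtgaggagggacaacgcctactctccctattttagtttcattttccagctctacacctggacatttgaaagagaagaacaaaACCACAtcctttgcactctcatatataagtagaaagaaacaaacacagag
Prf1: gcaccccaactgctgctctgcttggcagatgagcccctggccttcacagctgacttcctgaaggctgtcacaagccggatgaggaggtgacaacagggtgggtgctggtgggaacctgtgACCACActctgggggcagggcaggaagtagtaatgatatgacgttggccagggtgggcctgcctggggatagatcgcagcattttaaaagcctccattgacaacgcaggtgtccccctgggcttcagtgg
Xcl1: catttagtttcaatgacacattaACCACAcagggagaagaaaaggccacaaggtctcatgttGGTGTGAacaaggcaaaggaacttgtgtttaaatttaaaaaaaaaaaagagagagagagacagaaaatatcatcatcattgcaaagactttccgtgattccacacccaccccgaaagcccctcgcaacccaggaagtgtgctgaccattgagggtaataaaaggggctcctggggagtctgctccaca
TGTGGT was found in Ncr1 at 2 places and in the other 3 sequences at 1 place each, and in 8 of 10 NK genes searched (the 5 rule genes, Prf1, Klrk1, Nkg7, Fcer1g and Xcl1), against 14.0% of all 32851 promoters. TCACACC was found in 2 of the 10, Nkg7 and Xcl1, against 3.33% of all promoters. In no sequence shown did the 2 motifs overlap. The Ncr1 and Gzma sequences shown share 10 letters at the same place, with the first base 50 bases before the start. At another RefSeq start of Ncr1 the same letters begin 41 bases before it. The shared letters read AGGATGTGGT on the other strand and join the RUNX core to GGAT, a form of the core that ETS factors bind. These letters were picked out after the sequences had been compared, and 20 of all 32851 promoters (0.0609%), from 19 of 27025 genes, hold them. Ncr1 and Gzma hold them because the letters were picked from these 2 genes, and the 20 promoters and 19 genes include them. Among 297 genes of the lists used here that have a promoter sequence, no other holds them. A match describes the letters in this window, and no binding was measured.

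**Figure D1:**
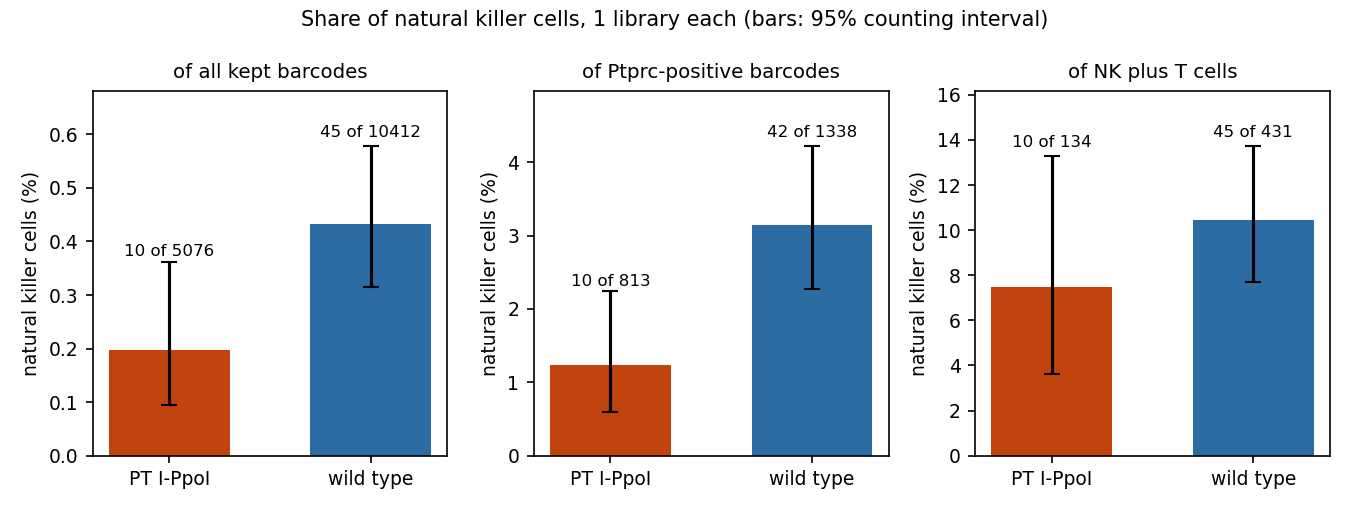
NK cells as a percentage of all kept barcodes, of barcodes with a Ptprc UMI, and of NK plus T cells, for PT I-PpoI (left) and wild type (right), with 95% Clopper-Pearson intervals for counting error. The share was lower in PT I-PpoI under all 3 denominators; the intervals overlap for kept barcodes and for NK plus T cells and are apart for Ptprc barcodes (1.23% and 3.14%).

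NK cells made up a smaller share of the PT I-PpoI library than of the wild-type library. They were 0.197% of kept barcodes in PT I-PpoI (95% Clopper-Pearson interval 0.0945 to 0.362), against 0.432% in wild type (0.315 to 0.578). Among barcodes with a Ptprc UMI they were 10 of 813 in PT I-PpoI, 1.23% (0.591 to 2.25), and 42 of 1338 in wild type, 3.14% (2.27 to 4.22). T cells, called from 2 or more Cd3 genes with no Cd79a or C1qa, numbered 124 and 386, and NK cells were 7.46% (3.64 to 13.3) of NK plus T cells in PT I-PpoI, against 10.4% (7.72 to 13.7) in wild type. The intervals of the share of kept barcodes and of NK plus T cells overlap, and those for Ptprc barcodes do not. Median depth over all kept barcodes was 11633 and 3344 UMIs, and its part in these shares was not tested.

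Depth and free RNA differed between the libraries and touch each comparison below. PT I-PpoI NK cells held 2403 to 6455 UMIs and 39259 in all, and wild-type NK cells 1102 to 24689 and 179535 in all. The median mitochondrial share was 2.66% and 7.04%. UMIs of 12 tubule genes, which NK cells are not known to express, made up a median of 0.0291% of a PT I-PpoI NK cell and 0.358% of a wild-type one. Set against the barcodes of 100 or fewer UMIs, this corresponds to 1.64% and 14.4% free RNA. In wild type 4 NK cells stood apart by depth, with 12718 to 24689 UMIs, where the deepest of the other 41 held 6510. Their tubule shares were 2.79 to 5.69%, and 2 of the other cells lay within this range, at 2.93% and 3.26%, with 63 and 129 UMIs of the tubule gene Kap. Those 2 cells remain in every value given without the deep cells. These 4 hold 37.7% of the UMIs of wild-type NK cells and lower the level of NK genes in the wild-type sum, and Scrublet marked 1 of them as a doublet. Values without them, an alternative chosen after seeing the data, are given where they matter. The libraries shared 19 kept barcodes, none of them an NK cell.

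Genes outside the rule fit the label for most cells, but those below do not part NK cells from resident group 1 innate lymphoid cells. Residency genes are given with the division by Gzma. Among the deep wild-type cells, 2 had 486 and 578 UMIs of Kap with 0 and 1 UMIs of Ccl5, and fit it less plainly. Among genes the rule did not use, Fcer1g, the Fc receptor gamma chain that NKp46 and CD16 signal through, was read in 10 of 10 PT I-PpoI cells and 44 of 45 wild-type cells, at 7 to 22 and 0 to 15 UMIs per cell. Tyrobp, the adaptor DAP12, was read in 9 of 10 and 43 of 45 cells. Nkg7, a cytotoxic granule protein, was read in 10 of 10 and 43 of 45. Of 15 T-cell genes outside the rule, 6 were read in PT I-PpoI cells and 9 in wild-type cells, with 55 and 91 UMIs, or 1401 and 507 CPM (UMIs scaled to a sum of 1000000 over the cells). Most of these UMIs were of Trbc1 and Trbc2, described below, while Cd8a, Cd8b1, Cd4, Cd5, Cd6 and Themis had 0 UMIs in both libraries and Trac had 0 and 1. The 6 markers of neutrophils, mast cells and basophils had 0. Of 7 B-cell genes none was read in PT I-PpoI cells and 2 were read in wild-type cells, with 7 UMIs in all. Of 9 macrophage genes 2 and 3 were read, with at most 0.0416% and 0.144% of a cell's UMIs. Of 9 genes of innate lymphoid cells of types 2 and 3, such as Gata3 and Il1rl1, 1 and 2 were read, with 1 and 8 UMIs.

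Activating receptors were read widely. Klrk1, the gene of NKG2D, had 0 to 8 UMIs per PT I-PpoI cell (median 5) and 0 to 7 per wild-type cell (median 2), which comes to 1248 CPM (923 to 1650) and 524 CPM (423 to 641). Klra8 encodes Ly49H, which is known to bind a cytomegalovirus protein, and Klra4 encodes the activating Ly49D. Klra4 had 31 UMIs in 4 of 10 PT I-PpoI cells, with up to 12 in a cell, and 62 UMIs in 10 of 45 wild-type cells, with up to 10. Klra8 had 18 UMIs in 5 cells and 27 UMIs in 10 cells. These receptors were therefore unevenly spread over the cells of both libraries, while NKG2D transcripts were read in 9 of 10 and 38 of 45.

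Among inhibitory receptors, Klrd1, the CD94 chain that pairs with NKG2 proteins, had 2 to 7 UMIs per PT I-PpoI cell (median 4.5) and 0 to 7 per wild-type cell (median 2). Its partner Klrc1, NKG2A, was read in 3 of 10 and 16 of 45 cells. Klra9, Klra7 and Klra3, further members of the Ly49 family, were read in 4, 6 and 2 of 10 cells and in 17, 11 and 8 of 45. The inhibitory receptors Tigit, Pdcd1 and Havcr2 had 0 UMIs in both, which allows up to 76.4 CPM in PT I-PpoI cells and up to 16.7 CPM in wild-type cells. Of the 22 Klr genes listed, 21 lie in one stretch of chromosome 6 between positions 128609227 and 130386874 (mm10), the NK gene complex. Of these 17 were read in PT I-PpoI cells, with 290 UMIs, and 16 in wild-type cells, with 613. These totals include Klrb1c and Klre1, rule genes that chose the cells. Ly49 genes are close copies of each other and reads can be split among them by the authors' counting, so values of single Ly49 genes are uncertain.

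In the killing machinery, Prf1, the gene of perforin, had 1 to 11 UMIs in each PT I-PpoI cell (median 2.5) and 0 to 10 in wild-type cells (median 1), 27 of 45 of which had a UMI. Gzmb, granzyme B, was read in 6 of 10 cells with up to 24 UMIs and in 11 of 45 cells with up to 7. Gzmc, Gzmk and Gzmm had no UMI. Both libraries thus read perforin with granzymes A and B and with no other granzyme of the list named here.

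Cytokine and chemokine transcripts were abundant. Ccl5, which recruits T cells and other leukocytes, had 14 to 106 UMIs per PT I-PpoI cell (median 61.5) and 0 to 84 per wild-type cell (median 23), 38 of 45 of which had a UMI. Xcl1, which attracts cross-presenting dendritic cells, was read in 7 of 10 and 35 of 45 cells, at up to 38 and 39 UMIs. Ccl4 was read in 9 of 10 and 33 of 45, and Ccl3 in 10 of 10 and 29 of 45. Ifng, interferon gamma, had 42 UMIs in 8 of 10 cells and 65 UMIs in 20 of 45 cells, and 26 of the wild-type UMIs came from 1 cell. Il2rb, the receptor chain through which IL-15 maintains NK cells, was read in 10 of 10 and 33 of 45 cells. Mki67, a proliferation gene, had no UMI in either library.

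**Figure D2:**
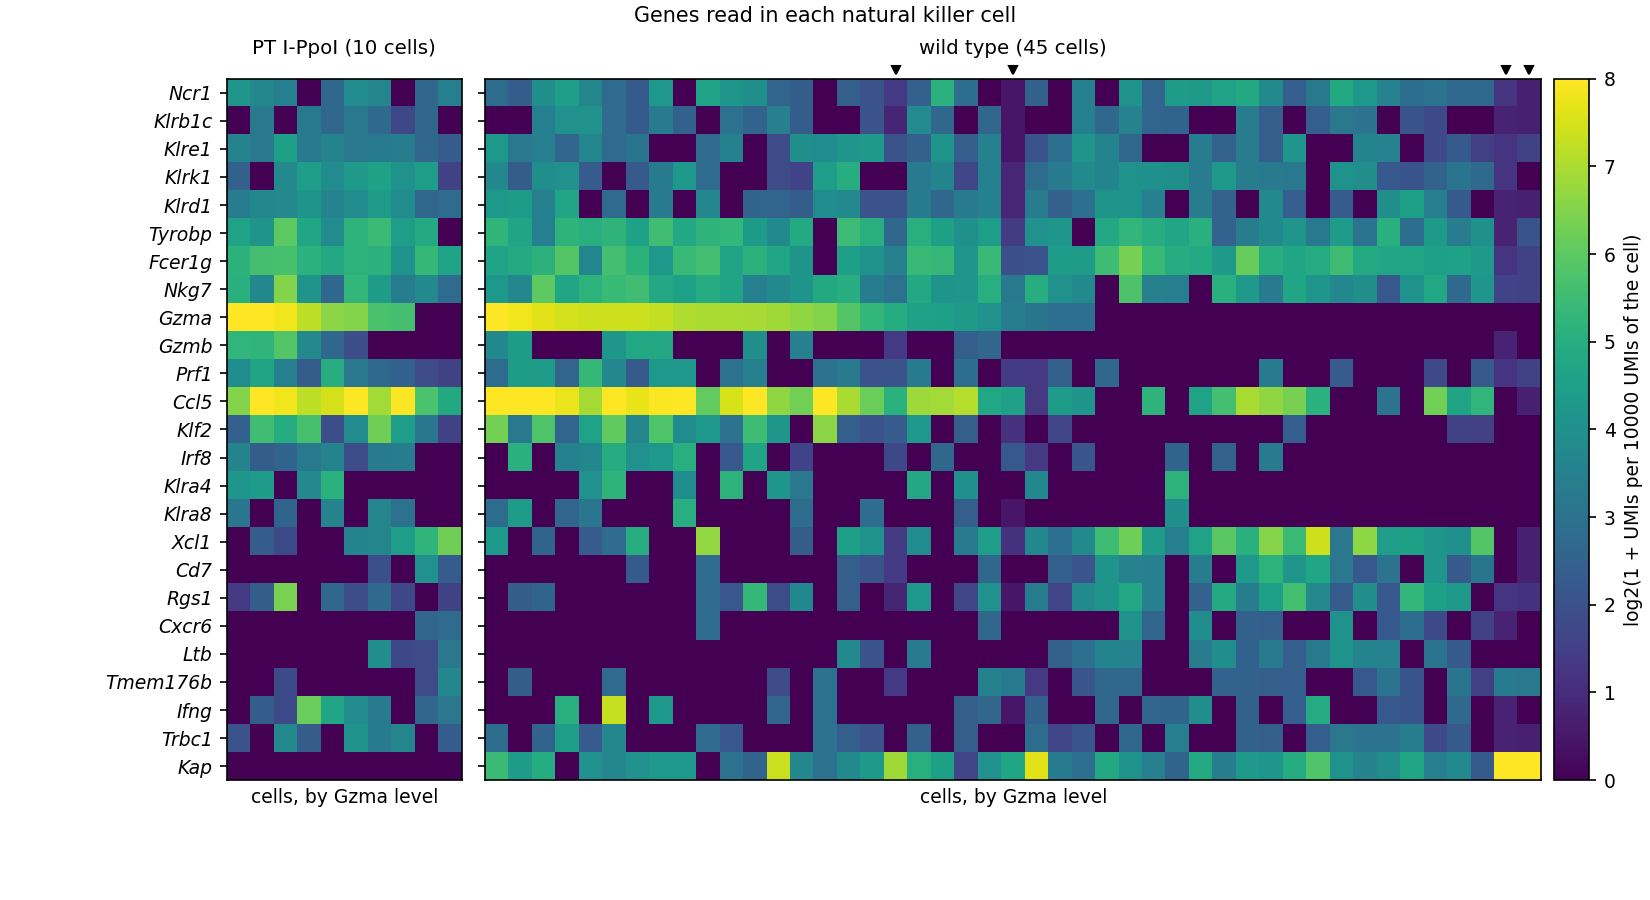
Each column is 1 NK cell, PT I-PpoI on the left and wild type on the right, ordered by Gzma level, and colour gives log2(1 + UMIs per 10000 UMIs of the cell). Black triangles mark the 4 wild-type cells of over 10000 UMIs. Klf2, Irf8 and Gzmb lie mainly under the Gzma-positive cells of wild type, Xcl1, Cd7 and Cxcr6 mainly under the Gzma-negative ones, and Fcer1g, Tyrobp and Nkg7 under both.

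The rule itself parted NK cells from T cells by Cd3 genes, so the values that follow are a description. NK cells were set against T cells of the same library, counting genes with 20 or more UMIs over both classes. Between the classes Tyrobp, Fcer1g, Irf8, Ly49 genes, perforin and the chemokines Ccl3 and Ccl4 were higher in NK cells, and T-cell receptor and CD8 genes were lower. In PT I-PpoI 1031 of 5196 genes (19.8%) were higher in NK cells by 2-fold or more and 1246 (24.0%) lower, and in wild type 776 of 7626 (10.2%) higher and 790 (10.4%) lower. Beside these shares, 6 of 6 counted inhibitory receptors in the PT I-PpoI library and 6 of 9 in the wild-type library were higher (median log2 ratios 2.99 and 2.43, where all genes had 0.15 and 0.10). Activating receptors were higher in 5 of 9 and 6 of 11, and lower in 1 each. TMM factors would shift the log2 ratios by -0.50 in the PT I-PpoI library and -0.18 in the wild-type library and would leave 429 and 513 genes higher by 2-fold.

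Tyrobp had 2624 CPM in PT I-PpoI NK cells and 17.8 in T cells, a log2 ratio of 7.16 (95% counting interval 6.42 to 8.09), and 1392 and 9.91 CPM in wild type, a ratio of 7.09 (6.39 to 7.99). Fcer1g followed at 6.16 and 5.91 in the 2 libraries. Irf8, a transcription factor known mainly from myeloid and B cells, stood at 4.99 and 4.97, with 611 and 19.0 CPM in PT I-PpoI, against 317 and 9.91 in wild type. Prf1 stood at 4.88 and 3.69, Ccl3 at 3.75 and 4.36 and Ccl4 at 2.37 and 2.39. Klra4 was read in wild-type NK cells with 62 UMIs and in T cells with none, at least 174-fold higher against a floor of 3 UMIs, and stood at a log2 ratio of 6.94 in PT I-PpoI. Cd7, Klra9, Klrc1, Serpinb9, which protects cells from granzyme B, and Gem, a small GTPase, had log2 ratios of 2.20 to 3.77 in PT I-PpoI, against 2.32 to 3.31 in wild type.

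Of the 15 T-cell genes that the rule did not use, 11 in the PT I-PpoI library and 15 in the wild-type library were lower in NK cells by 2-fold or more. The lowest were genes of the T-cell receptor, CD8 and helper function (Cd8b1, Cd8a, Trac, Cd40lg, Themis), with Gzmk, the interferon-induced Ifi27l2a and the tubule proton pump gene Atp6v1g3. All of these had 0 UMIs in PT I-PpoI NK cells and 0 or 1 in wild-type ones. At the depth of the PT I-PpoI cells a count of 0 does not show Themis or Gzmk to be lower than in T cells, since the upper ends of their intervals are 0.63 and 0.52, and the fitted ratios of genes at 0 depend on the prior. The constant regions of the T-cell receptor beta chain were lower too, and were still read in many NK cells. The log2 ratio of Trbc1 was -0.50 (-1.18 to 0.05) in PT I-PpoI, against -1.03 (-1.52 to -0.60) in wild type, and that of Trbc2 was -1.40 and -2.76. Trbc1 was read in 7 of 10 PT I-PpoI NK cells and 28 of 45 wild-type ones, with 24 and 43 UMIs, and Trbc2 in 4 and 13 cells. Unrearranged transcripts of this locus are known from NK cells. At 1000 UMIs per cell Trbc1 was read in 30% of PT I-PpoI NK cells, 38% of CD8 T cells and no B cell, and in 20%, 39.9% and no B cell in wild type (unthinned 70%, 56% and 0 of 47, and 62.2%, 58.0% and 0 of 134). The 0 of 47 and 0 of 134 allow up to 6.38% and 2.24% of B cells with a UMI, which does not limit the share of cells that express the gene. Median depths were 3753, 5497.5 and 14799 UMIs in these PT I-PpoI classes and 2362, 2929 and 2053.5 in the wild-type ones. A rule that also refused the Trbc genes and other markers would keep 2 and 12 NK cells.

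Across the other classes, Tyrobp and Fcer1g were shared with macrophages. At 1000 UMIs per cell Tyrobp was read in 70% of NK cells and 71.0% of macrophages in PT I-PpoI, and in 71.1% and 80.5% in wild type, with 0.4% and 1.6% of tubule cells (unthinned 90%, 89.3% and 2.43% in the PT I-PpoI library, 95.6%, 95.9% and 2.67% in the wild-type library). Nkg7 and Ccl5 were shared with CD8 T cells. In PT I-PpoI, Nkg7 was read in 80% of NK cells, 72% of CD8 T cells and 0.3% of tubule cells (unthinned 100%, 94% and 0.591%). In wild type it was read in 77.8%, 77.5% and 0.1% (unthinned 95.6%, 90.6% and 0.623%). Tubule cells had medians of 14426.5 and 4850 UMIs and macrophages 5481 and 2825.

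**Figure D3:**
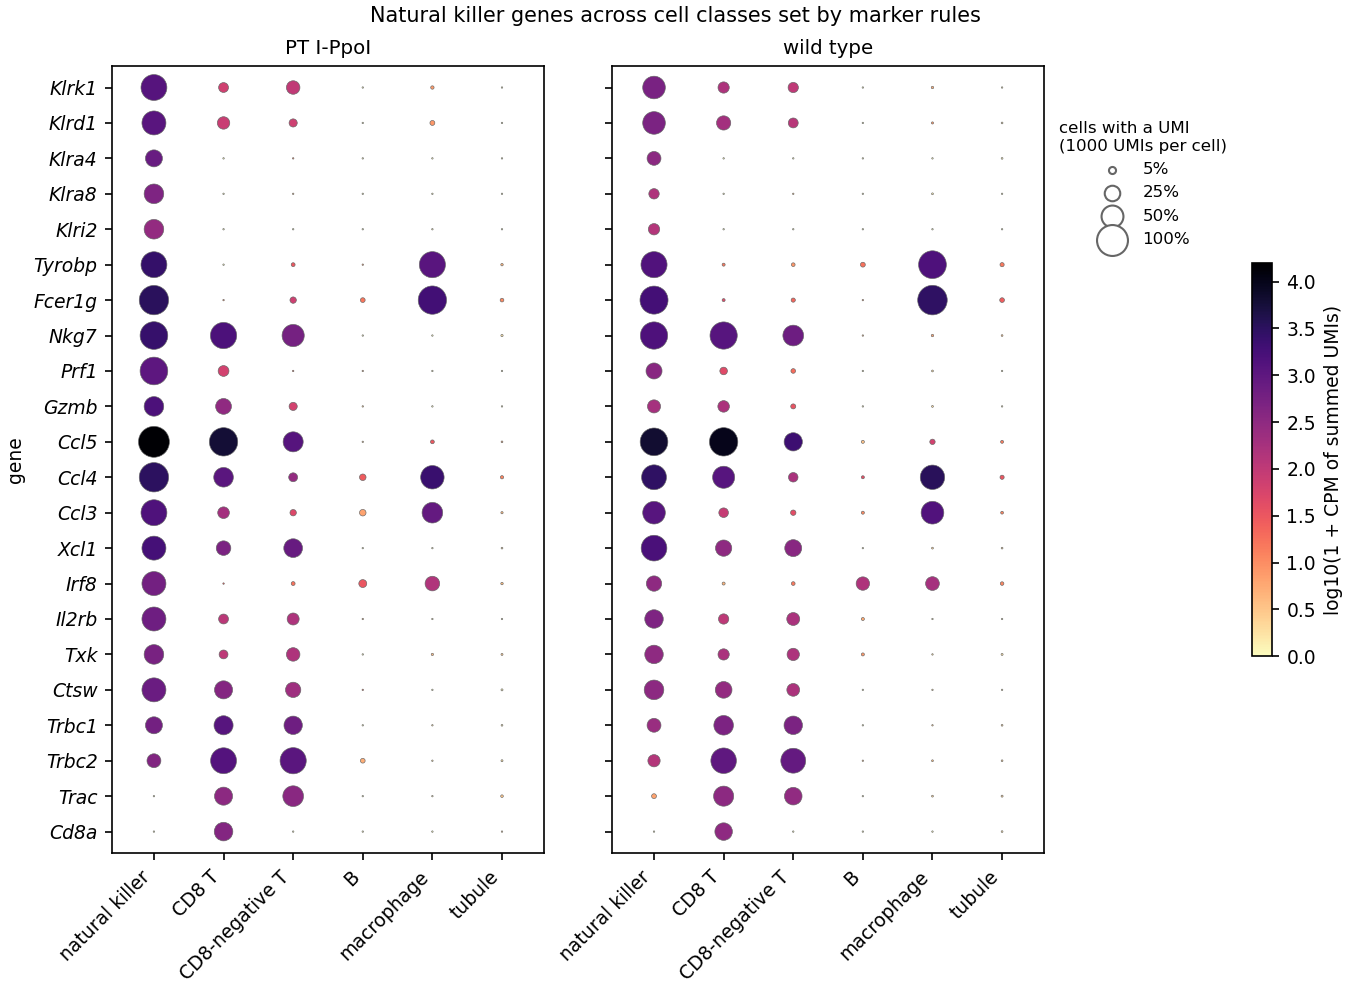
Share of cells with a UMI at 1000 UMIs per cell (dot area) and log10(1 + CPM) of summed UMIs (colour) for 22 genes in 6 classes set by marker rules, PT I-PpoI on the left and wild type on the right. Klr receptor genes are largest in NK cells, Tyrobp and Fcer1g in NK cells and macrophages, Nkg7 and Ccl5 in NK and CD8 T cells, and Trac in the T-cell classes.

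The wild-type NK cells divided by Gzma. No cell held exactly 1 Gzma UMI: 19 wild-type cells had 0 and 26 had 2 to 55 (median 24), and in PT I-PpoI 2 cells had 0 and 8 had 18 to 206 (median 35). Median depths of the wild-type sets were close, at 2362 UMIs without Gzma and 2369 with it. This division was chosen after the values had been seen, and since cells without Gzma needed 2 of the other rule genes, levels of those genes cannot be read across it. Gzma-positive cells were 80% of NK cells in PT I-PpoI (44.4 to 97.5), against 57.8% in wild type (42.2 to 72.3), intervals that overlap.

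Without Gzma, wild-type cells had more transcripts of residency genes and of the chemokines Xcl1 and Ccl4, and fewer of Ccl5, Gzmb, Prf1 and genes of mature NK cells. Among cells of up to 10000 UMIs, 17 without and 24 with Gzma, 280 of 1594 genes (17.6%) were higher by 2-fold or more in cells without Gzma and 109 (6.84%) lower, with a median of 0.22 over all genes. Scrublet marked cells of 4123 and 5292 UMIs as doublets, both among the 17 without Gzma. No marked cell was among the 24 with it. The marked cells were kept, and their part in the division was not tested. Of 17 listed residency genes only 7 had enough UMIs to be counted, and Itga1 was not among them. Of these 7 counted residency genes 6 were higher and 0 lower (median log2 ratio 2.01). Of 8 counted genes of mature NK cells 0 were higher and 5 lower (median -1.38). Genes of immature NK cells went the same way as residency genes, with 3 of 6 counted ones higher and 0 lower (median 1.30). Ltb was counted in both lists, so the lists are not separate measures. Whether the cells without Gzma are resident or immature was not tested. Of 12 counted genes of the cytotoxic granule and death ligands 2 were higher and 3 lower (median -0.39), and of 6 cytokines and chemokines 3 were higher and 1 lower (median 0.58). Of 4 counted genes held to separate circulating NK cells from resident ones, among them Klra4, Klra8 and Zeb2, all 4 were lower, though Zeb2 stood at -1.48 (-4.10 to 0.22), and at -0.64 with the deep cells. Over all 45 wild-type cells 431 of 2631 genes (16.4%) were higher and 195 (7.41%) lower.

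Cxcr6, a chemokine receptor of tissue-resident lymphocytes, was read in 11 of 19 wild-type cells without Gzma and 2 of 26 with it, with a log2 ratio of 3.36 (1.58 to 6.79) in cells of up to 10000 UMIs. Cd7, an immunoglobulin-family receptor of lymphocytes, was read in 15 of 19 and 8 of 26, with 49 and 8 UMIs in cells of up to 10000 UMIs, a log2 ratio of 3.01. Xcl1 stood at 4484 CPM in cells without Gzma and 1062 CPM in cells with it, a log2 ratio of 2.07 (1.68 to 2.49), and Ccl4 at 6234 and 2340 CPM, a ratio of 1.41 (1.13 to 1.71). With the deep cells included the Ccl4 ratio was 0.77 (0.52 to 1.03). Ltb, a lymphotoxin chain, and Rgs1, a brake on chemokine receptor signalling, were higher by 2.01 and 1.41. A gene each of endothelium and macrophages was also higher in cells without Gzma. The endothelial gene Flt1 had 24 UMIs in 3 of 19 cells without Gzma and 2 UMIs in 1 of 26 with it, a log2 ratio of 3.76, and the macrophage gene Apoe 17 and 1 UMIs in cells of up to 10000 UMIs, a ratio of 4.02 that was 1.63 with the deep cells. Both ratios exceed those of Cxcr6 and Cd7. In cells of up to 10000 UMIs some tubule genes went the other way, with Klk1 at -4.57, Slc34a1 at -1.42 and Kap at -1.27. With the deep cells Klk1 stood at -5.86, Slc34a1 at 0.64 and Kap at 1.68. Of 9 counted tubule and endothelial genes 1 was higher and 4 lower without the deep cells (median -0.69). The part of all these genes in the division was not tested.

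On the other side, Klf2, a transcription factor that keeps lymphocytes in circulation, was read in 3 of 19 wild-type cells without Gzma and 21 of 26 with it, a log2 ratio of -4.37 (-6.89 to -3.00). Gzmb was read in 1 of 19 and 10 of 26, Irf8 in 3 of 19 and 15 of 26, and Prf1 in 7 of 19 and 20 of 26. Prf1 stood at -2.16 (-3.64 to -1.09) and Irf8 at -2.73 (-4.83 to -1.42). Ccl5 was read in 12 of 19 and 26 of 26, at 3544 and 13993 CPM in cells of up to 10000 UMIs, while Ccl3 stood at -0.26 (-0.69 to 0.16). Fcer1g, Klrk1, Klrd1, Tyrobp and Nkg7, read in both kinds of cell, all differed by less than 2-fold. Other receptors differed more. In cells of up to 10000 UMIs, 4 of 10 counted activating receptors were higher without Gzma and 4 lower (median -0.095). Of 7 inhibitory receptors 0 were higher and 2 lower, and of 12 adaptors 0 and 2. Over all genes 17.6% were higher and 6.84% lower.

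The 2 PT I-PpoI cells without Gzma resembled the wild-type ones in some of these genes and not in others. Both had UMIs of Cxcr6, Cd7, Xcl1, Ltb, Tmem176b, Itga1 and Inpp4b, with 14 and 38 UMIs of Xcl1, and neither had a UMI of Gzmb, Irf8, Klra4, Klra8 or Klra7. Both also had UMIs of Klf2 and Prf1, which most wild-type cells without Gzma lacked, and Rgs1 and Ccl4 were read in 1 of the 2. Of the 8 with Gzma, none had a UMI of Cxcr6 and 1 had one of Cd7. Resident and mature genes were not fully exclusive: at 1000 UMIs per cell 4 of 10 PT I-PpoI cells and 3 of 45 wild-type cells had 2 or more genes of each list, and 7 wild-type cells had 2 or more residency genes and no mature gene.

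**Figure D4:**
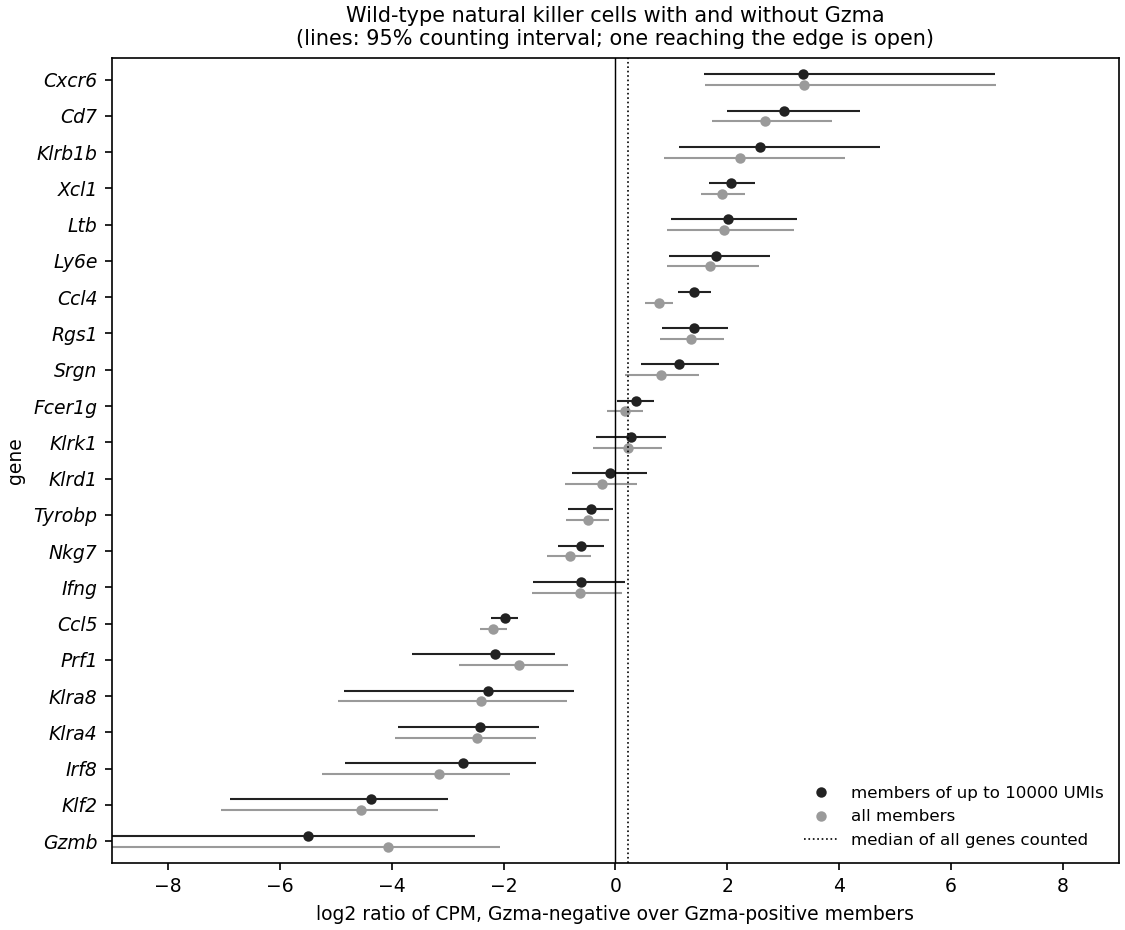
Log2 ratio of CPM in Gzma-negative over Gzma-positive wild-type NK cells for 22 genes, in cells of up to 10000 UMIs (black) and in all cells (grey), with 95% counting intervals. A line that reaches the left edge has no lower bound or one that lies beyond the edge. Cxcr6 (3.36) and Cd7 (3.01) are at the top, Klf2 (-4.37) and Gzmb at the bottom, and the dotted line marks the median of all genes (0.22).

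Between the libraries, PT I-PpoI NK cells had more UMIs of heat-shock and immediate early genes, Gzmb, perforin, Klf2 and Icam1, as a share of all UMIs, than wild-type ones, and fewer UMIs of tubule genes. Of 3143 genes with 10 or more UMIs over both libraries, 600 (19.1%) were higher in PT I-PpoI by 2-fold or more and 640 (20.4%) lower. Without the 4 deep wild-type cells 282 (13.1%) were higher and 270 (12.5%) lower of 2155, and among Gzma-positive cells of up to 10000 UMIs 217 (17.3%) were higher and 92 (7.34%) lower of 1253. TMM factors would shift every ratio by -0.56 and median-of-ratios factors by -0.61 on the log2 scale, which turns the split to 176 higher and 1005 lower, or 158 and 1041, so the directions given here hold only relative to total UMIs unless a ratio exceeds that shift.

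Of 28 counted heat-shock and immediate early genes 20 were higher in PT I-PpoI and none lower (median log2 ratio 1.44, all genes 0.25). Without the deep cells 16 of 28 were higher (median 1.03, all genes 0.22), and with TMM factors 10 of 28 (median 0.88). Hspa8, the constitutive HSP70 chaperone, had 3 to 30 UMIs per PT I-PpoI cell (median 7.5) and 0 to 33 per wild-type cell (median 3), a log2 ratio of 1.20 (0.86 to 1.53), and 1.16 without the deep cells. Jund, an AP-1 subunit, had 3 to 21 (median 13) and 0 to 16 (median 3), a ratio of 1.63, and 1.12 without the deep cells. The cells of both libraries overlap for these genes.

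Hspa1b, stress-induced HSP70, had 48 UMIs in 5 of 10 PT I-PpoI cells, with up to 16 in a cell, and 6 UMIs in 3 of 45 wild-type cells, a log2 ratio of 5.09 (3.97 to 6.71). Its near-identical neighbour Hspa1a had 64 UMIs in 2 PT I-PpoI cells, 43 and 21 in each, and 7 UMIs in 4 wild-type cells, and reads of the pair cannot be told apart with certainty. Other PT I-PpoI cells had no Hspa1a UMI, so these transcripts were concentrated in few cells. T cells of the same libraries went the same way, with Hspa1b at 558 and 63.4 CPM, a ratio of 3.13.

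Among effector genes, Gzmb had 1579 CPM in PT I-PpoI, against 189 CPM in wild type, a log2 ratio of 3.05 (2.43 to 3.71), 2.50 (1.87 to 3.18) without the deep cells and 2.08 (1.45 to 2.77) among Gzma-positive cells of up to 10000 UMIs. Of its 62 PT I-PpoI UMIs, 24 and 23 came from 2 of the 10 cells. Prf1 stood at 1.48 (0.87 to 2.06), and at 1.11 without the deep cells and 0.82 (0.16 to 1.47) among Gzma-positive cells. Klf2 stood at 1.79, 1.22 and 0.77 under the same 3 counts, and Ccl5 at 1.26, 0.71 and 0.45. The ratios of these genes were thus smaller between cells of like Gzma state. Ccl4 and Xcl1 differed little over all cells, at 0.16 (-0.14 to 0.44) and 0.20 (-0.21 to 0.57), and stood at -0.29 and -0.46 without the deep cells and at 0.69 and -0.74 among Gzma-positive cells. Ifng stood at 1.57 (0.97 to 2.14), and at 0.93 without the deep cells.

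Over all genes 19.1% were higher and the median was 0.25, and without the deep cells 13.1% and 0.22; several of the list counts below lie near these shares. By list, 8 of 11 activating receptors and 4 of 7 inhibitory receptors were higher in PT I-PpoI over all cells (medians 1.25 and 1.10), and 2 of 11 and 2 of 7 without the deep cells (0.57 and 0.54). Adaptors had a median of 0.89 with 6 of 16 higher, and 0.34 with 0 of 15 higher without the deep cells. Interferon-response genes had a median of 0.35, with 3 of 12 higher and 1 lower, and -0.26 without the deep cells and -0.21 with TMM factors. MHC class I presentation genes had a median of 0.83, with 5 of 16 higher and 2 lower, and 0.35 without the deep cells. Cytokines and chemokines had a median of 0.33, and -0.30 without the deep cells and -0.23 with TMM factors. Apart from the heat-shock and immediate early genes, no list of NK genes given here kept a median above 1 once the deep cells were left out.

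Other single genes higher in PT I-PpoI were Icam1, an adhesion molecule, at 662 and 94.7 CPM and a log2 ratio of 2.79 (1.87 to 3.78), or 2.28 without the deep cells, and the signalling adaptor Cmip (2.81), the RNA-binding Hnrnpa0 (2.64), Klra7 (2.51), Gimap7 (2.42), Mxd1 (2.42), Plek (2.42) and the chaperone Hsph1 (2.30). Without the deep cells Cmip stood at 2.57, Hnrnpa0 at 2.48, Klra7 and Plek at 1.91, Gimap7 at 1.74, Mxd1 at 1.87 and Hsph1 at 2.91, and Gimap7 and Mxd1 were no longer among the 10 highest. Of the Icam1 UMIs of PT I-PpoI, 16 of 26 came from 1 cell. Among the genes lowest in PT I-PpoI were Kap, Gpx3, Slc34a1, Miox, Spink1, Akr1c21, Acsm2, Cyp4b1 and Timp3, all with 0 UMIs there. Most are genes of the proximal tubule. Kap had 1616 UMIs in 43 of 45 wild-type cells, of which 1271 came from the 4 deep cells, and was at least 118-fold lower in PT I-PpoI against a floor of 3 UMIs. Of 15 listed tubule and endothelial genes, 4 were read in PT I-PpoI cells and 15 in wild-type cells, and 10 of 13 counted ones were lower in PT I-PpoI and 1 higher (median -3.53). The free RNA share given above was computed from 12 tubule genes of this list, so it is no separate measure of them. The part of free RNA in the result was not tested.

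**Figure D5:**
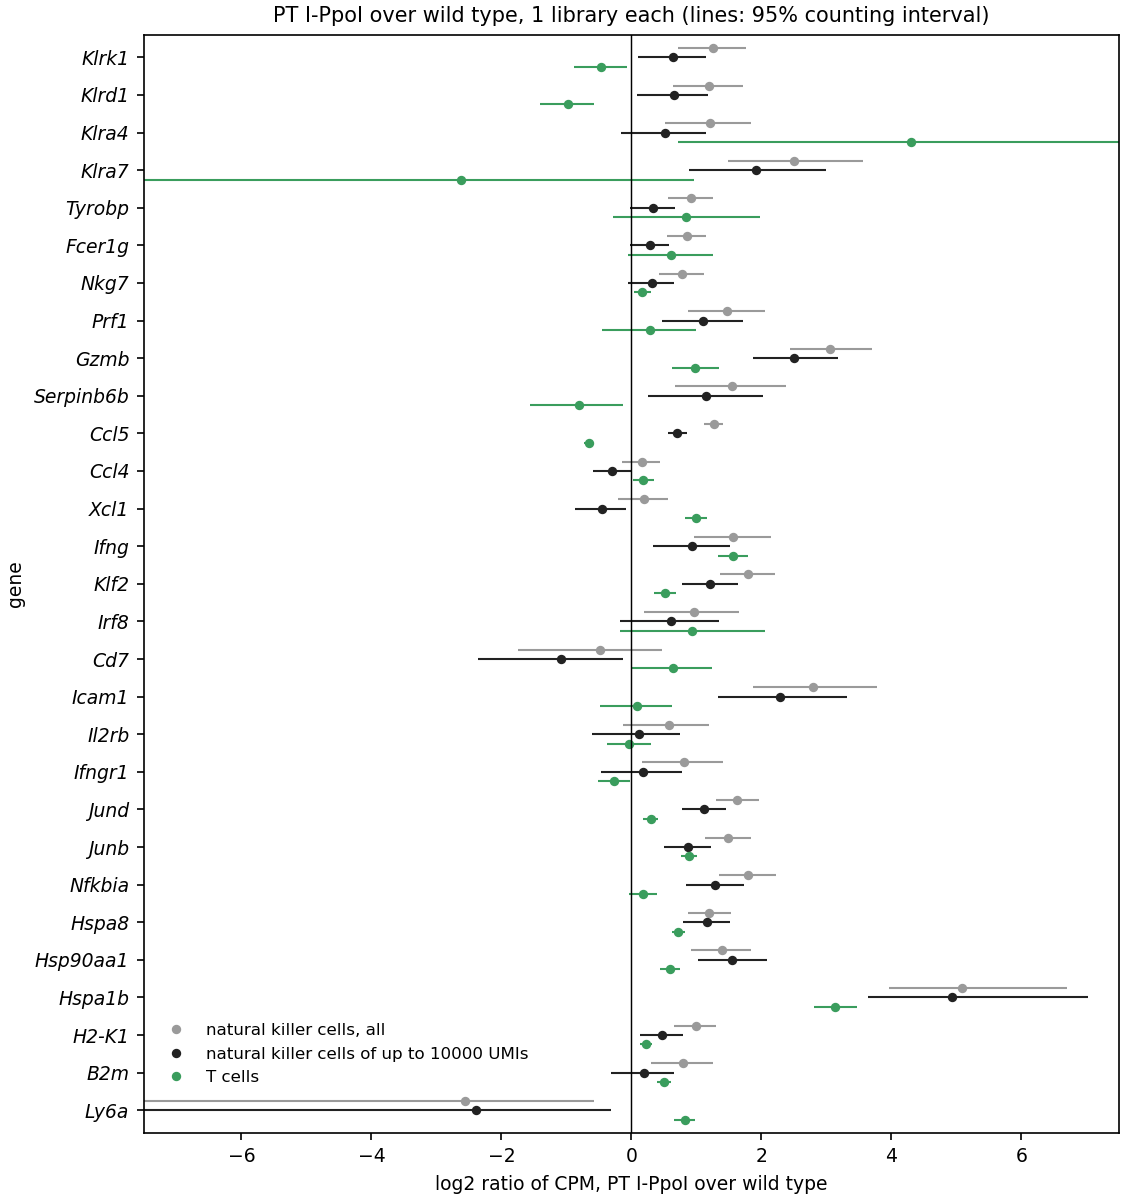
Log2 ratio of CPM in PT I-PpoI over wild type for 29 genes, in all NK cells (grey), in NK cells of up to 10000 UMIs (black) and in T cells (green), with 95% counting intervals. Hspa1b stands at 5.09 in NK cells and 3.13 in T cells, Gzmb at 3.05, and leaving out the deep wild-type cells moves most NK ratios towards 0.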

How the data were processed

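The authors deposited, for each library, an unfiltered 10x matrix of raw UMI counts over 31053 genes. Per the submitters' processing notes, the build was mm10 and the tools included Cell Ranger 3.1 and Seurat 3. Per the file headers, the matrices come from Cell Ranger 4, a mismatch that is unresolved. The libraries hold 93257620 and 107977310 UMIs (PT I-PpoI, wild type). Members and gene lists were chosen with earlier results of these data known.

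UMIs of a class were added up and scaled to a sum of 1000000 (CPM). Ratios carry a prior of 0.5 UMI and exact conditional binomial 95% intervals, sums Poisson intervals and shares Clopper-Pearson intervals, all for counting error only. No test was run, since each group is 1 library. Past the fold means 2-fold or more, among genes of 10 UMIs (PT I-PpoI against wild type) or 20 UMIs (against T cells) over both sides. For shares of cells with a UMI, each barcode was thinned to 1000 UMIs, which dropped none; tubule cells were sampled to 1000. No doublet was removed: Scrublet (scanpy 1.11.5, expected rate 0.06) marked 58 and 312 kept barcodes (1.14% and 3.00%), of which 0 and 3 were NK cells. TMM factors came from edgeR 4.0.16 in R 4.3.3. GENCODE M21 gave positions for 30934 gene IDs. Promoters are from RefSeq (GRCm38.p6). Code was tested on simulated counts with known folds.

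Genes named were the rule genes; per list up to 8 genes of highest CPM and the genes at 0 that define another cell type; the 12 highest and 8 lowest against T cells in wild type with the same sign in PT I-PpoI (30 UMIs and 5 cells or more); and the 10 highest and 10 lowest between the libraries (10 UMIs and 4 cells or more). Mitochondrial, ribosomal, haemoglobin, immunoglobulin and some sex-linked genes and unnamed models were left out of the last 2. The X-linked gene Cd40lg stayed in. Some genes that the rule names are not reported here. Other named genes, among them those of the division by Gzma and Hspa1a, were chosen after their values were seen. Alternatives tried were other membership rules, depth and mitochondrial limits, doublets left out, scaling, UMI minima, a mean over cells, free RNA subtracted and unthinned shares.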

Additional observations from a re-analysis of the deposited data

Results flagged for a closer look

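For 9 genes of the lists or the named genes, NK cells and T cells of the same libraries differed in direction between PT I-PpoI and wild type, with both counting intervals off 0. The lists hold 384 of the measured genes, and the share of all genes with opposite directions is not given here. TMM factors would shift the NK ratios by -0.56. The difference between NK cells and T cells was not tested, since each library is 1 sample.

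For 6 genes the log2 ratio of PT I-PpoI over wild type was positive in NK cells and negative in T cells. For Klrk1 it was 1.26 in NK cells and -0.46 in T cells, and 0.64 in NK cells without the 4 deep wild-type cells. For Klrd1 it was 1.20 and -0.97, and 0.65 without the deep cells. For Ccl5 it was 1.26 and -0.66, and 0.71 without the deep cells. For Serpinb6b, an inhibitor of proteases, it was 1.55 and -0.80, and 1.15 without the deep cells. Ifngr1 had 0.81 and -0.26, and 0.18 (-0.47 to 0.78) without the deep cells, so its interval then holds 0. Rhob, a small GTPase, had 1.85 and -1.17, on 7 and 8 UMIs in NK cells without the deep ones (1.33, -0.38 to 2.98).

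The other 3 ran the opposite way. Ly6a, the lymphocyte surface antigen Sca-1, stood at -2.56 in NK cells and 0.82 in T cells, on 1 UMI in PT I-PpoI, against 40 in wild type, and at -2.40 without the deep cells. The tubule genes Slc12a3 (-3.09 and 1.05) and Klk1 (-2.49 and 0.68) had intervals that hold 0 in NK cells once the deep cells were left out, at -0.08 and -1.95.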

How the results depend on the processing

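No paired analysis was possible because each group is 1 library. Of the values checked, 810 single-gene values and 105 others stayed within their counting interval or within 1.5 times, 86 single-gene values and 35 others moved, and none changed sign past its interval. With 3 or more rule genes the wild-type share was 0.307%, or 7.66% of NK plus T cells, with 75% Gzma-positive. Refusing further T-cell and other markers left 2 and 12 cells (0.0394% and 0.115%; 1.59% and 3.02% of NK plus T cells), 209 genes higher and 369 lower in PT I-PpoI, and 2811 higher and 272 lower (PT I-PpoI) or 1354 and 1296 (wild type) against T cells. Without the 4 deep cells 282 were higher and 270 lower. TMM factors gave 176 and 1005, with 429 and 513 higher against T cells, and median-of-ratios factors 158 and 1041, with 417 higher against T cells in PT I-PpoI. A minimum of 5 UMIs gave 1272 and 1486 between libraries, and against T cells 2321 higher in PT I-PpoI and 1811 higher and 1625 lower in wild type. A minimum of 20 UMIs (40 against T cells) gave 253 and 309, then 384 and 517, and 372 and 394. With 10 cells in PT I-PpoI, a gene at 0 UMIs allows up to 76.4 CPM there and 16.7 CPM in wild type.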
